A study of Mus musculus with 16 samples.

Results

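The growth factor receptors of myeloid progenitors examined here are the products of 8 genes: Flt3, Kit, Csf1r, Csf2ra, Il3ra, Csf2rb, Csf2rb2 and Csf3r. Members were taken as every noncontrol array probe whose printed gene symbol is one of these names, which gave 14 of 39429 probes, or 8 of 31093 symbols. Flt3 and Csf1r have 3 probes each, Csf2rb and Csf2rb2 have 2 each, and the other genes have 1 each. All 14 were well above background on all 16 arrays, so every member probe was tested among the 27433 probes that passed the filter on dim signals.

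The samples were monocyte/DC progenitors (MDPs) and common DC progenitors (CDPs) sorted from the bone marrow of female C57/Bl6 mice. Tumor-bearing mice carried orthotopic tumors of PyMT B6, a mammary cell line from the MMTV-PyMT model, grown to 1.5 cm in diameter, and tumor-free controls were age-matched. The groups are tumor-free MDPs, tumor-bearing MDPs, tumor-free CDPs and tumor-bearing CDPs, each with 4 samples numbered 2 to 5 by the labels, and each sample was pooled from 2 mice and hybridized to its own 1-color Agilent array. Tumors of 1 transplanted cell line stand for the tumor state in all comparisons, and the mice were young adults by the general statement on age in the study's methods.

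Flt3, Kit and Csf1r are receptor tyrosine kinases for FLT3 ligand, stem cell factor and M-CSF (with IL-34), and their signals keep progenitors alive and steer them to dendritic cell, mast cell or macrophage fates. The GM-CSF and IL-3 receptors are pairs: a ligand-specific alpha chain (Csf2ra, Il3ra) joins a signaling beta chain. Mice have a common beta chain, Csf2rb, shared by the GM-CSF, IL-3 and IL-5 receptors, and a close paralog, Csf2rb2, that serves IL-3. Csf3r is the G-CSF receptor of the granulocyte lineage. MDPs and CDPs are conventionally sorted as lineage-negative cells with surface CD135 (Flt3) and CD115 (Csf1r), with c-Kit high on MDPs and lower on CDPs. The gates of this study are not given in the sources used here, so the MDP to CDP differences of those 3 genes are reported as values with no test.

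Signals are log2 processed intensities with the 75th percentile of each array set to 0. Differences between groups are log2 differences of group means with standard errors (SE), fitted with limma over all tested probes. A probe was called where the Benjamini-Hochberg adjusted p was under 0.05 and the fold change above 1.5. The arrays sat on 4 slides with 4 arrays each, 58.8% to 71.5% of probes were well above background on an array, and replicates correlated at r = 0.943 to 0.981. Slide 1 had the lowest median share above background, 62.1%, and held no tumor-bearing CDP sample, while slide 4 had the highest, 71.3%, and held no tumor-bearing MDP sample. The median change of all tested probes was 0.08 for the tumor comparison in CDPs and -0.11 in MDPs, against 0.03 and 0 after quantile normalization. In bulk samples, fewer cells that carry a transcript and less transcript per cell cannot be told apart.

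The 6 genes listed as MDP and CDP markers (Flt3, Csf1r, Kit, Irf8, Cx3cr1 and Cd34) were well above background on all arrays of every group. All 6 had lower means in tumor-bearing than in tumor-free CDPs, with a median change of -0.85. Of them 1 was called, beside 1.79% of all tested probes. Flt3, Csf1r and Kit are themselves members, and the called gene is Kit, so the list is not separate from the results below. In tumor-free and tumor-bearing CDPs, the means of the others were 4.33 and 4.3 for Irf8, 3.21 and 1.95 for Cx3cr1, and 1.67 and 0.76 for Cd34. The B cell gene Ms4a1 and the mast cell genes Ms4a2, Mcpt4 and Cma1 were not well above background on any array.

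In CDPs, Kit was lower and a Csf2rb probe was higher in tumor-bearing mice, and these were the 2 called probes of 14, where 1.79% of all tested probes were called. Between groups of arrays, 5 of 14 member probes did not overlap, against 11.1% of all tested probes. In MDPs, limma called 0 of 14 member probes, where 0.062% of all tested probes were called, and 3 had an unadjusted p under 0.05. The test named in the study's methods also called 0 of the 14 in MDPs, with 2 at an unadjusted p under 0.05. In MDPs, the groups did not overlap for 2 of 14 member probes, against 5.22% of all tested probes. The median change over the 14 probes was -0.01 in CDPs and -0.11 in MDPs, beside 0.08 and -0.11 for all tested probes.

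**Figure D1:**
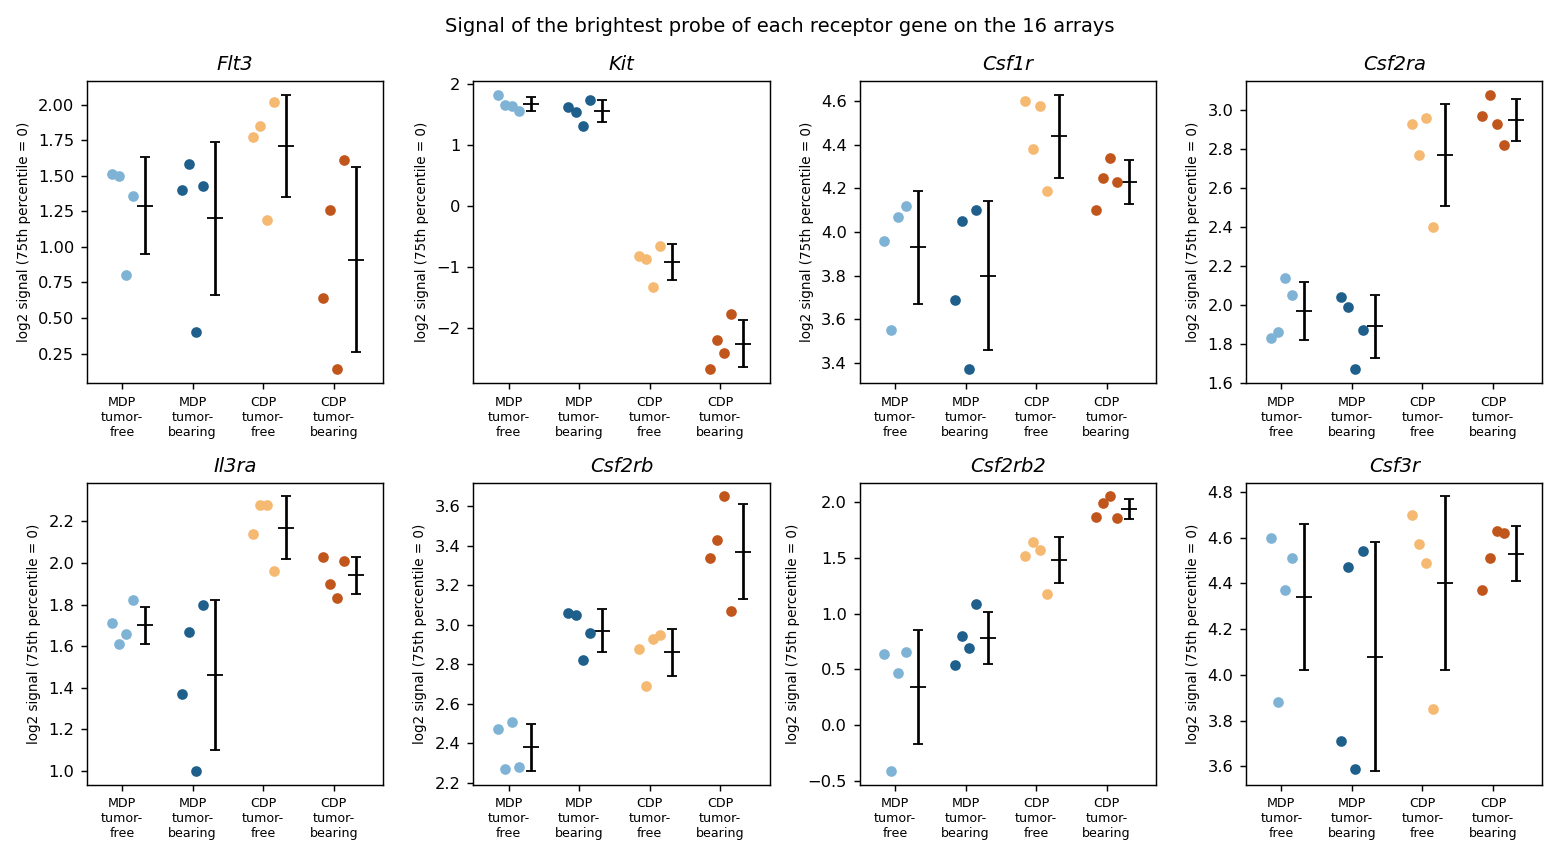
Log2 signal (array 75th percentile = 0, vertical axes with their own ranges) of the brightest probe of each of the 8 genes, in the 4 groups on the horizontal axis. Points are arrays in the order of replicates 2 to 5 and bars are mean ± SD (n = 4); Kit falls from MDPs to CDPs and again in tumor-bearing CDPs, and Csf2rb is higher in tumor-bearing mice in both progenitors.

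Kit encodes the stem cell factor receptor, and its single probe lies at mm9 chr5:76052394-76052453, on the plus strand. In tumor-free CDPs its log2 signals were -0.83, -0.87, -1.33 and -0.66 for replicates 2 to 5. In tumor-bearing CDPs they were -2.68, -2.20, -2.42 and -1.77. All 4 tumor-bearing arrays were below all 4 tumor-free arrays. The mean fell from -0.92 ± 0.29 to -2.26 ± 0.39 (SD, n = 4 each), a change of -1.34 (SE 0.20, 95% interval -1.76 to -0.92), or 2.54-fold, with a limma adjusted p of 0.00441. The exact two-sided permutation p was 0.0286, the smallest that 4 arrays against 4 allow. Kit was lower in tumor-bearing CDPs on each of the 3 slides that held both groups, by differences of -1.08, -0.94 and -1.57, and the change with slide as a block was -1.31 (limma adjusted p = 0.005). The call held without each of the 8 arrays in turn (changes from -1.51 to -1.21). The call was lost where only the CDP arrays entered the fit (limma adjusted p = 0.078) and in the test named in the study's methods (adjusted p = 0.111), with the same change.

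In MDPs the Kit signals were 1.82, 1.66, 1.64 and 1.56 in tumor-free mice and 1.62, 1.53, 1.31 and 1.73 in tumor-bearing mice. These groups overlapped, and the change was -0.12 (SE 0.20, 95% interval -0.55 to 0.30, limma adjusted p = 0.783). The tumor change was more negative in CDPs than in MDPs by -1.22 (SE 0.28, 95% interval -1.81 to -0.62), with an unadjusted limma p of 0.000618 and an adjusted p of 0.604. No difference of tumor changes was called by limma among the 14 member probes, where 0.0146% of tested probes were called, and Kit was the 1 member probe with an unadjusted p under 0.05. The groups ordered from tumor-free MDPs through tumor-bearing MDPs and tumor-free CDPs to tumor-bearing CDPs, and only the MDP pair overlapped. CDPs differed from MDPs by -2.59 in tumor-free mice and -3.81 in tumor-bearing mice, 6.03-fold and 14-fold, on a gene whose protein relates to the gate. Where the sort used surface c-Kit, as is conventional, it acted on samples of both tumor states, and its part in the tumor change was not tested.

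Lists of genes used as markers of other cell types were set beside the fall of Kit in CDPs. Of 11 neutrophil and granule genes tested, 3 were called higher in tumor-bearing CDPs, where 1.79% of all tested probes were called. They were Lcn2 by 2.70, Mmp8 by 1.87 and Elane by 1.12. Of the 11, 8 had higher means in tumor-bearing CDPs. The other 3 were the secondary granule genes Ltf (-3.03 in tumor-free and -3.48 in tumor-bearing CDPs), Camp (-2.38 and -3.02) and Ngp (-3.03 and -3.28), none of them called. The summed level of that list was 5.63 to 6.16 in tumor-free and 6.53 to 7.08 in tumor-bearing CDPs, with no overlap. This sum is weighted to Elane, Mpo, Prtn3 and Ctsg, its highest genes in CDPs. In tumor-free MDPs it was 6.49 to 7.06, so a high level of this list is not particular to tumor-bearing CDPs. The erythroid list had a summed level of 1.38 to 3.46 in tumor-free and 0.90 to 2.05 in tumor-bearing CDPs. Of its 6 tested genes 5 had lower means, with a median change of -1.18, and limma called 0, with 3 at an unadjusted p under 0.05. The stem and multipotent progenitor list was at 1.24 to 1.74 against 1.65 to 2.04, with 0 of 5 tested genes called by limma and 2 at an unadjusted p under 0.05. That sum is weighted to Ly6a, its highest gene, with means of 0.98 in tumor-free and 1.55 in tumor-bearing CDPs. The median change of the 5 was -0.52, and 2 had higher means in tumor-bearing CDPs. The mast cell and basophil list was at 0.66 to 1.94 against 1.85 to 2.32, with 0 of 6 tested genes called and its mast cell genes Ms4a2, Mcpt4 and Cma1 not above background. The mammary tumor list had 0 of 4 tested genes called by limma in CDPs and 0 at an unadjusted p under 0.05. Its epithelial genes differed in detection. Cdh1 was not well above background on any array, whereas Krt18 and Krt14 reached that level on all 4 arrays in every group. Between tumor-free and tumor-bearing CDPs, the count of arrays at that level went from 1 to 3 for Epcam and from 2 to 1 for Krt8. The part of these cell types in the Kit result was not tested.

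Flt3, the receptor that drives dendritic cell development, is read by 3 probes on mm9 chromosome 5. The brightest lies at chr5:148178496-148178555 on the minus strand. Its signals were 1.77, 1.85, 1.19 and 2.02 in tumor-free CDPs and 0.64, 1.26, 0.14 and 1.61 in tumor-bearing CDPs. The groups overlapped, with 2 tumor-bearing arrays below all tumor-free arrays. The change was -0.79 (SE 0.33, 95% interval -1.51 to -0.07), with a limma adjusted p of 0.299 and an exact permutation p of 0.0857, and was not called. The second Flt3 probe, at chr5:148142576-148142635, differed by -0.77 (adjusted p = 0.327 by limma). It tracked the brightest probe across the 16 arrays at r = 0.963. The last probe, designed on a cDNA clone, lay between -4.08 and -1.98 on the 16 arrays, differed by -0.07 and correlated with the brightest at r = 0.185.

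In MDPs the brightest Flt3 probe read 1.51, 1.50, 0.80 and 1.36 in tumor-free mice and 1.40, 1.58, 0.40 and 1.43 in tumor-bearing mice. The change was -0.09 (SE 0.33, 95% interval -0.81 to 0.63) and became 0.17 without tumor-bearing MDP replicate 4. The difference of the tumor changes was -0.70 (SE 0.47, limma adjusted p = 0.749). The sample numbered 4 was the lowest of each of the 4 groups for both brighter Flt3 probes. All 4 groups overlapped their neighbors in level, from tumor-bearing CDPs (0.91 ± 0.65) and tumor-bearing MDPs (1.20 ± 0.54) to tumor-free MDPs (1.29 ± 0.34) and tumor-free CDPs (1.71 ± 0.36, SD, n = 4 each).

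Csf1r, the M-CSF receptor of the monocyte and macrophage lineage, is read by 3 probes on chromosome 18. Its brightest probe read 4.60, 4.38, 4.58 and 4.19 in tumor-free CDPs and 4.10, 4.25, 4.34 and 4.23 in tumor-bearing CDPs. The groups overlapped, and the change was -0.21 (SE 0.18, 95% interval -0.60 to 0.19, limma adjusted p = 0.721). In MDPs it read 3.96, 3.55, 4.07 and 4.12 in tumor-free and 3.69, 4.05, 3.37 and 4.10 in tumor-bearing mice, a change of -0.12 (SE 0.18, adjusted p = 0.767 by limma). The other 2 probes differed by 0.04 and -0.05 in CDPs and by -0.22 and -0.32 in MDPs. None of the 6 tumor differences was called, and the intervals of the brightest probe leave out a change of 1.5-fold upward in either progenitor. CDPs were above MDPs by 0.51 in tumor-free mice and 0.43 in tumor-bearing mice on the brightest probe, given as values because of the gate.

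**Figure D2:**
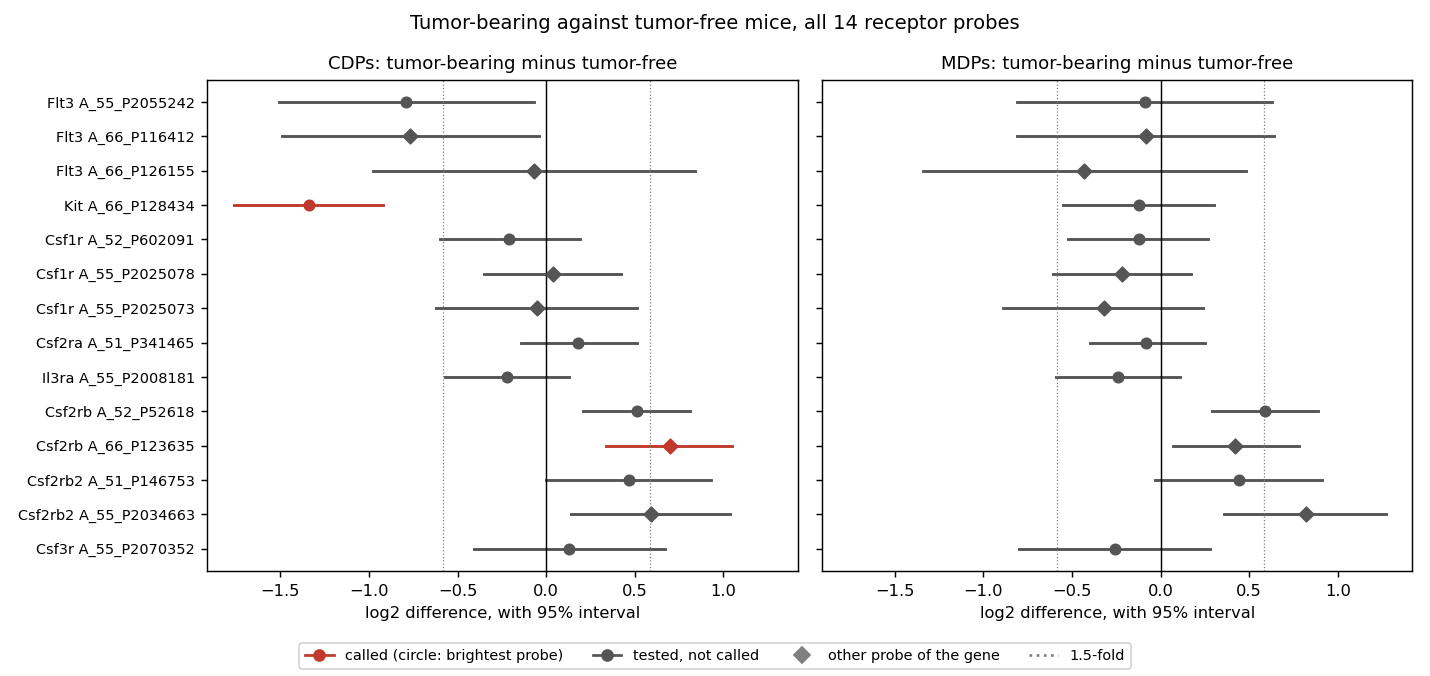
Log2 difference between tumor-bearing and tumor-free mice (horizontal axis) of all 14 member probes (rows) in CDPs, left, and MDPs, right, with 95% intervals from the fit over 16 arrays. Red marks called probes, circles the brightest probe of a gene and diamonds its other probes, and dotted lines 1.5-fold; Kit stands at -1.34 in CDPs and -0.12 in MDPs, and all 4 Csf2rb and Csf2rb2 probes lie above 0 in both.

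Csf2rb and Csf2rb2, the beta chains, had higher signals in tumor-bearing than in tumor-free mice on all 4 of their probes and in both progenitors, by 0.42 to 0.82, and 1 of these 8 differences was called. The difference was above 0 in each of the 18 alternative fits of each probe and comparison. Several of these fits keep the group means of the main fit and others leave out 1 array, so this agreement is not separate support. The 2 genes are paralogs, and their brightest probes are shown because they share a stretch in which cross-hybridization could mix their signals. Capitals mark the bases at which the stretches differ.
Csf2rb A_52_P52618: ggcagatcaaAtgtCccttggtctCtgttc
Csf2rb2 A_51_P146753: ggcagatcaaGtgtTccttggtctAtgttc
The 30 bases differ at 3 positions. The other 3 pairings of a Csf2rb with a Csf2rb2 probe differed at 15 or 16 of 30 bases at their most similar placement, so the second probe of each gene was set beside the brightest.

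The brightest Csf2rb probe, at mm9 chr15:78181168-78181227 on the plus strand, read 2.88, 2.69, 2.93 and 2.95 in tumor-free CDPs. It read 3.34, 3.43, 3.65 and 3.07 in tumor-bearing CDPs. All tumor-bearing arrays were above all tumor-free arrays, and the change was 0.51 (SE 0.14, 95% interval 0.21 to 0.81, exact permutation p = 0.0286), with a limma adjusted p of 0.0882. The second Csf2rb probe, at chr15:78179504-78179563, read 2.43, 2.34, 2.41 and 2.27 in tumor-free and 3.01, 3.18, 3.26 and 2.79 in tumor-bearing CDPs. These groups did not overlap either. The change was 0.70 (SE 0.17, 95% interval 0.34 to 1.05), or 1.62-fold, with a limma adjusted p of 0.0487, and was called. The 2 probes therefore stood on different sides of the threshold, and they correlated at r = 0.884 over the 16 arrays. The call of the second probe lay close to the threshold. Its adjusted p by limma was 0.0271 with slide as a block, 0.117 where only the CDP arrays entered the fit, and 0.037 to 0.157 with 1 array left out, where 1 of 8 fits called it.

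In MDPs the brightest Csf2rb probe read 2.47, 2.27, 2.51 and 2.28 in tumor-free mice and 3.06, 3.05, 2.82 and 2.96 in tumor-bearing mice. The groups did not overlap, and the change was 0.59 (SE 0.14, 95% interval 0.29 to 0.89), with an unadjusted limma p of 0.000906 and an adjusted p of 0.197. On the 3 slides that held both MDP groups it was higher in the tumor-bearing sample by 0.67, 0.58 and 0.68. The second probe read 2.04, 1.61, 2.09 and 2.01 against 2.0, 2.58, 2.56 and 2.29, a change of 0.42 (SE 0.17, adjusted p = 0.433 by limma), with overlap. The tumor change of the brightest probe differed between CDPs and MDPs by -0.08 (95% interval -0.51 to 0.35). Its group means ran from 2.38 ± 0.12 in tumor-free MDPs through 2.86 ± 0.12 in tumor-free CDPs and 2.97 ± 0.11 in tumor-bearing MDPs to 3.37 ± 0.24 in tumor-bearing CDPs (SD, n = 4 each). Only the middle 2 groups overlapped.

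The brightest Csf2rb2 probe, at chr15:78113126-78113185 on the minus strand, read 1.52, 1.64, 1.57 and 1.18 in tumor-free CDPs and 1.87, 1.99, 2.05 and 1.86 in tumor-bearing CDPs. The groups did not overlap, and the change was 0.47 (SE 0.22, 95% interval 0.00 to 0.93, exact permutation p = 0.0286), with a limma adjusted p of 0.372. Its second probe, at chr15:78114097-78114156, read 0.03, 0.25, 0.52 and 0.62 against 0.76, 1.02, 1.25 and 0.76. That change was 0.59 (SE 0.21, adjusted p = 0.201 by limma), and with slide as a block it was 0.67 and called (adjusted p = 0.0266).

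In MDPs the brightest Csf2rb2 probe read 0.64, -0.41, 0.47 and 0.66 in tumor-free mice and 0.54, 0.80, 0.69 and 1.09 in tumor-bearing mice, a change of 0.44 (SE 0.22, limma adjusted p = 0.502). Tumor-free replicate 3 was far below the other tumor-free arrays, and the change was 0.19 without it. The second probe read 0.08, -0.26, -0.36 and -0.56 against 0.38, 0.54, 1.06 and 0.19, without overlap. Its change was 0.82 (SE 0.21, 95% interval 0.36 to 1.27), with an unadjusted limma p of 0.00175 and an adjusted p of 0.243. The summed level of the neutrophil and granule list described for Kit was also higher in tumor-bearing than in tumor-free CDPs. In tumor-free mice it was lower in CDPs (5.63 to 6.16) than in MDPs, whereas every beta chain probe had a higher mean in CDPs. In MDPs the summed level of the list was 6.49 to 7.06 in tumor-free and 6.61 to 7.36 in tumor-bearing samples. Lcn2, up by 2.17, was its 1 called gene of 11, beside 0.062% of all tested probes. The part of such cells in the beta chain differences was not tested.

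Csf2ra, the alpha chain of the GM-CSF receptor, has 1 probe at mm9 chr19:61300336-61300395 on the minus strand. It read 1.83, 1.86, 2.14 and 2.05 in tumor-free MDPs and 2.93, 2.77, 2.96 and 2.40 in tumor-free CDPs. All CDP arrays were above all MDP arrays, and the difference was 0.80 (SE 0.15, 95% interval 0.47 to 1.12), or 1.74-fold, with a limma adjusted p of 0.00566. In tumor-bearing mice it read 2.04, 1.99, 1.67 and 1.87 in MDPs and 2.97, 3.08, 2.93 and 2.82 in CDPs. That difference was 1.06 (SE 0.15, 95% interval 0.73 to 1.38), or 2.08-fold, with a limma adjusted p of 0.000801. CDPs were higher on each slide that held both cell types, 4 in tumor-free mice and 2 in tumor-bearing mice, by 0.54 to 1.13. The tumor change was 0.18 (95% interval -0.14 to 0.51) in CDPs and -0.08 (95% interval -0.40 to 0.25) in MDPs, neither called by limma. The group means were 1.89 ± 0.16 and 1.97 ± 0.15 in tumor-bearing and tumor-free MDPs and 2.77 ± 0.26 and 2.95 ± 0.11 in tumor-free and tumor-bearing CDPs (SD, n = 4 each), with overlap within each cell type.

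Of the 7 probes of the 5 genes outside the gate, 2 were called higher in CDPs than in MDPs in tumor-free mice, where 6.07% of all tested probes were called. In tumor-bearing mice, 3 were called higher, where 7.24% were called overall. MDP and CDP arrays did not overlap for 5 of 7 probes in either tumor state, against 13.3% (tumor-free) and 14% (tumor-bearing) of all tested probes. All 7 were higher in CDPs in both, with a median difference of 0.48 in each, beside medians of 0.02 and 0.19 for all tested probes. The tumor-free and tumor-bearing steps use separate samples.

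The probes called in both steps were that of Csf2ra and the brightest of Csf2rb2. From the values given above, the latter was higher in CDPs by 1.14 (SE 0.22, 2.20-fold, limma adjusted p = 0.00612) in tumor-free mice. In tumor-bearing mice it was higher by 1.16 (SE 0.22, 2.23-fold, adjusted p = 0.00555 by limma). Neither pair of groups overlapped. The tumor-free call was lost where only those groups entered the fit (limma adjusted p = 0.0527). The group means were 0.34 ± 0.51 in tumor-free MDPs, 0.78 ± 0.23 in tumor-bearing MDPs, 1.48 ± 0.21 in tumor-free CDPs and 1.94 ± 0.09 in tumor-bearing CDPs (SD, n = 4 each), and only the MDP groups overlapped. The second Csf2rb2 probe differed by 0.63 and 0.40 and was not called in either, so the probes of the gene stood on different sides of the threshold. With slide as a block the tumor-free difference of the second probe was called as well (adjusted p = 0.0131 by limma). The second Csf2rb probe was called in tumor-bearing mice at 0.70 (SE 0.17, 1.63-fold, limma adjusted p = 0.0193) and not in tumor-free mice at 0.43 (adjusted p = 0.173). With slide as a block the tumor-bearing difference was 0.57, under 1.5-fold. The brightest Csf2rb probe differed by 0.48 and 0.40, uncalled.

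**Figure D3:**
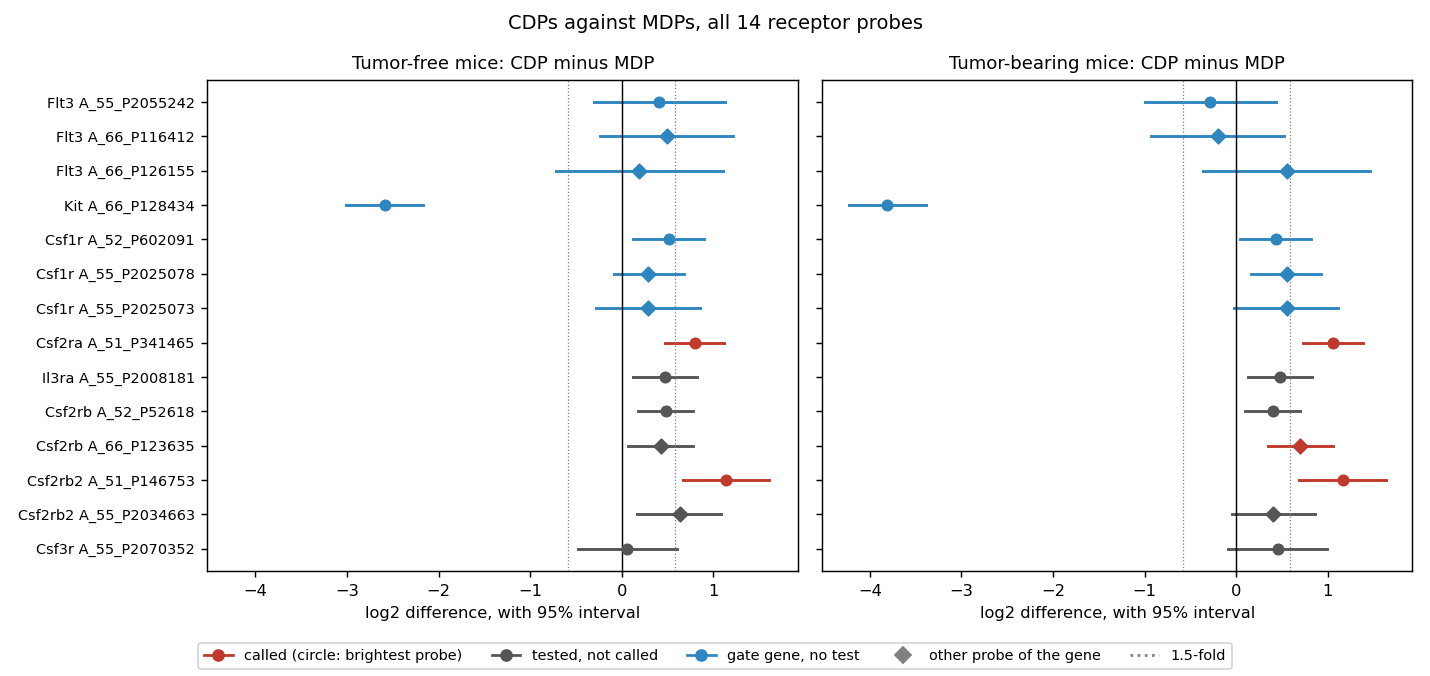
Log2 difference between CDPs and MDPs (horizontal axis) of the 14 member probes (rows) in tumor-free mice, left, and tumor-bearing mice, right, with 95% intervals. Red marks called probes, grey tested probes not called, and blue the probes of Flt3, Kit and Csf1r, given with no test; circles are the brightest probe of a gene and diamonds its other probes, and Csf2ra and the brightest Csf2rb2 probe are red in both panels.

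Il3ra, the alpha chain of the IL-3 receptor, has 1 probe at mm9 chr14:15187898-15187957 on the plus strand. It read 1.71, 1.61, 1.66 and 1.82 in tumor-free MDPs and 1.37, 1.67, 1.0 and 1.80 in tumor-bearing MDPs. It read 2.14, 2.28, 2.28 and 1.96 in tumor-free CDPs and 2.03, 1.90, 1.83 and 2.01 in tumor-bearing CDPs. CDP arrays were above all MDP arrays in both tumor states, by 0.47 (SE 0.16, limma adjusted p = 0.123) and 0.48 (SE 0.16, adjusted p = 0.0881), uncalled. With slide as a block the tumor-bearing difference was 0.32. The tumor changes were -0.22 in CDPs (95% interval -0.57 to 0.13) and -0.24 in MDPs (95% interval -0.59 to 0.11). The group means ran from 1.46 ± 0.36 in tumor-bearing MDPs and 1.70 ± 0.09 in tumor-free MDPs to 1.94 ± 0.09 in tumor-bearing CDPs and 2.17 ± 0.15 in tumor-free CDPs (SD, n = 4 each). The tumor differences of Il3ra were below 0 and those of the beta chains above 0, with no test between the chains.

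Beside the steps from MDP to CDP, the mast cell and basophil list stood at 3.02 to 3.22 in tumor-free MDPs and 0.66 to 1.94 in tumor-free CDPs, with 3 of 6 tested genes called lower in CDPs. The monocyte and macrophage list, which holds Csf1r, stood at 5.86 to 6.21 against 6.23 to 6.6, with 1 of 9 genes called higher, Ccr2 by 1.0. In tumor-bearing mice, 3 of its 9 genes were called higher. Of all tested probes, 6.07% were called between MDPs and CDPs in tumor-free mice and 7.24% in tumor-bearing mice. The T and NK cell list stood at 3.76 to 3.85 in tumor-free MDPs and 0.82 to 1.21 in tumor-free CDPs, a difference carried by Nkg7, its 1 called gene of 5, at -3.12. The median change of the 5 was 0.01, and 3 had higher means in CDPs. The part of these cells in the receptor differences was not tested.

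Csf3r, the G-CSF receptor, has 1 probe, and its signal cannot be assigned to Csf3r with certainty. The array design places it at mm9 chr19:60157892-60157951, whereas RefSeq places the gene on chromosome 4. Its last 30 bases are shown because they occur elsewhere on the array, and capitals mark the last 18 bases, which 4 probes of other symbols also hold on either strand.
Csf3r A_55_P2070352: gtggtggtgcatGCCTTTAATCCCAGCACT
Of the 14 member probes, this was the only one that shared any stretch of 18 bases with a probe of another symbol, 5 probes in all. The 5 probes correlated with it across the 16 arrays at r = 0.812 to 0.946.

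The Csf3r probe read 4.60, 3.88, 4.37 and 4.51 in tumor-free MDPs and 3.71, 4.47, 3.59 and 4.54 in tumor-bearing MDPs. It read 4.70, 4.57, 4.49 and 3.85 in tumor-free CDPs and 4.37, 4.51, 4.63 and 4.62 in tumor-bearing CDPs. The 4 lowest values were those of the 4 arrays on slide 1, whatever their group. Slide accounted for 93.6% of its variance over the 16 arrays, beside a median of 48.5% over 27301 tested probes with a value on each array, and 5.81% of these had a share as high. The tumor change was 0.13 in CDPs (95% interval -0.41 to 0.67) and -0.26 in MDPs (95% interval -0.80 to 0.28), and -0.03 and -0.10 with slide as a block. CDPs differed from MDPs by 0.06 and 0.45. None was called, and the sign in CDPs turned under the slide block and after quantile normalization (-0.14).

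Among the other member probes, slide accounted for 50.4% to 83.7% of the variance for the 3 Csf1r probes, 18.1% for Kit and 8.66% for the brightest Csf2rb probe. Group accounted for 98.2% of the variance of Kit, 90.1% for Csf2ra and 86.9% for the brightest Csf2rb probe. Slide and group shares overlap because the groups are not spread evenly over the slides.

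**Figure D4:**
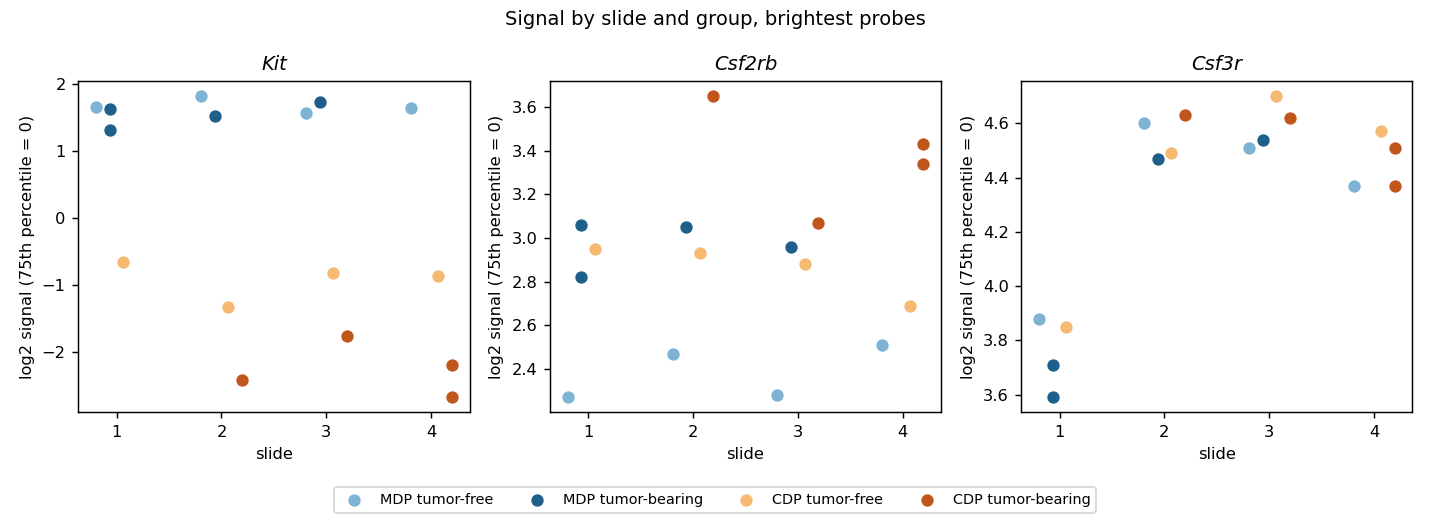
Log2 signal (array 75th percentile = 0, vertical axes with their own ranges) of the brightest Kit, Csf2rb and Csf3r probes against the slide (1 to 4), 1 point per array, colored by group. Within each slide Kit is higher in MDPs than in CDPs, and the Csf3r probe is lowest on slide 1 in every group present there.

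The members were set against each other after each slide's mean was subtracted, as a description over the 16 arrays, which share slides and the contrast of MDPs with CDPs. Kit ran opposite to Csf2ra (r = -0.94), Csf2rb2 (r = -0.903) and Csf2rb (r = -0.712). Csf2rb and Csf2rb2 ran together (r = 0.829), as did Csf1r and Il3ra (r = 0.859). Each gene stands here by its brightest probe, and those of Csf2rb and Csf2rb2 share the similar stretch shown above. The part of cross-hybridization in their r was not tested. Csf2rb and Il3ra, partners in the IL-3 receptor, had r = 0.0753. Flt3 had no r beyond 0.561 with another member.

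Among 15457 symbols, those most like Kit by the same measure were Spns3 (r = 0.983), Myb (r = 0.978) and Sirt3 (r = 0.972). Myb is a transcription factor of immature blood progenitors. Most like Csf2ra were Stx11 (r = 0.983), Lyz1 (r = 0.98), which encodes lysozyme, and Flna (r = 0.976). Those most like Csf2rb were Tlr2 (r = 0.942), a receptor for bacterial lipoproteins, Cdc20 (r = 0.941) and Smdt1 (r = 0.94). For Csf2rb2 they were Wfdc18 (r = 0.963), Usp25 (r = 0.963) and Reep4 (r = 0.956). For Csf1r they were Gripap1 (r = 0.949), Rbpj (r = 0.937), the nuclear effector of Notch, and Setd1b (r = 0.928). For Il3ra they were Prr33 (r = 0.967), A930007A09Rik (r = 0.964) and Dmrt1 (r = 0.957). The nearest to Flt3 were Tgfbr3l (r = 0.90), Lcn6 (r = 0.889) and Cldn9 (r = 0.888), and to the Csf3r probe they were Zap70 (r = 0.875), Serpina3b (r = 0.863) and Zfp488 (r = 0.858). Without subtracting slide means, r fell to 0.358, 0.20 and 0.274 for the genes nearest to Flt3, to 0.592 for Flna with Csf2ra and to 0.534 for Reep4 with Csf2rb2, whereas it was 0.964 to 0.968 for the genes nearest to Kit.

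Promoters were read for Csf2ra and Csf2rb2, the genes called higher in CDPs in both tumor states. The 250 bases before the RefSeq start (build GRCm38.p6, both genes on the minus strand, chr19:61228419-61228668 and chr15:78305722-78305971) are printed 5′ to 3′. Capitals mark GAGGAA on either strand, the core of sites for PU.1, a myeloid transcription factor known to act on receptor genes of this kind.
Csf2ra: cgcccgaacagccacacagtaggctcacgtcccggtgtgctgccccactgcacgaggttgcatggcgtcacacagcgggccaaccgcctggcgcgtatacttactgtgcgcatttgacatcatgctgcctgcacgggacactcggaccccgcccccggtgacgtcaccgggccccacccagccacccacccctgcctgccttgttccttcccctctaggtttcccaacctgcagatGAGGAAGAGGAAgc
Csf2rb2: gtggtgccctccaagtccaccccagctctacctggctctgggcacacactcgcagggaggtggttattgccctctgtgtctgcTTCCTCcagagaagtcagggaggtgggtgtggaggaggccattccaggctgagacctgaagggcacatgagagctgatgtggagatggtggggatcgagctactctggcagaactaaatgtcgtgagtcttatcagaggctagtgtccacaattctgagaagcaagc
The letters occur 2 times in the Csf2ra window, 1 time in the Csf2rb2 window, and in 23.3% of all promoter windows of this length. Windows were read for 6 of the 8 genes, and the letters also occur in those of Csf3r and Kit and not in those of Flt3 and Il3ra. These are matches of letters in a window.

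The other genes of these pathways were followed in lists of ligands, related receptors, kinases and adaptors, feedback genes and transcription factors, with 1 probe per gene. Of the 7 ligand genes, Csf2, Csf3 and Il3 were not well above background on any of the 16 arrays. The other 4 were tested, and limma called 0 in either tumor comparison (at an unadjusted p under 0.05, 0 in CDPs and 1 in MDPs). Csf1, the M-CSF gene, was well above background on all 4 arrays of tumor-free MDPs (mean -3.80) and on 0 of 4 of tumor-free CDPs (mean -7.21), so it was at least 2.81-fold higher in MDPs (limma adjusted p = 0.0143). The bound sets the dim CDP arrays at the lowest signal among their probes well above background. In tumor-bearing mice Flt3l was higher in CDPs by 1.1 (SE 0.23, adjusted p = 0.00916 by limma). Kitl was well above background on all 4 CDP arrays and on 1 of 4 MDP arrays, so the size of its called difference is loosely set. It was 2.97 as fitted, 1.18 after normexp background correction and 2.13 with slide as a block. The call of Kitl held in 5 of 17 alternative fits, and these 2 were among the fits that lost it.

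Of 6 related receptors tested, 0 were called by limma in CDPs (2 at an unadjusted p under 0.05) or in MDPs (0) with tumor. Lifr, the LIF receptor, was higher in CDPs than in MDPs by 1.53 in tumor-free mice (SE 0.27, limma adjusted p = 0.00352) and 1.62 in tumor-bearing mice (SE 0.27, adjusted p = 0.00243). Pdgfrb, a receptor kinase related to Kit and Csf1r, differed by -3.89 between tumor-bearing CDPs and MDPs (SE 0.77, limma adjusted p = 0.00767). It was called in 15 of 17 alternative fits and lost where only those groups entered the fit (adjusted p = 0.0642 by limma). Its size moved to -1.59 after normexp, -2.90 with slide as a block and -4.84 without tumor-bearing CDP replicate 5.

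Of 23 receptor-proximal kinases and adaptors, limma called 0 with tumor in CDPs (2 at an unadjusted p under 0.05) and 0 in MDPs (1). Their median tumor change was -0.10 in CDPs and -0.01 in MDPs, beside 0.07 and -0.09 over 15526 genes. Between the progenitors, 3 were called higher in tumor-free CDPs and 4 in tumor-bearing CDPs, with 0 lower. Of all tested probes, 6.07% and 7.24% were called in these comparisons. The median difference of the list was 0.15 in tumor-free mice (19 of 23 higher), beside 0.02 over all genes. In tumor-bearing mice it was 0.18 (14 of 23 higher), beside 0.16. Jak2, the kinase bound to the beta chains, was higher by 1.09 (SE 0.17, limma adjusted p = 0.00129) in tumor-free mice. In tumor-bearing mice it was higher by 0.73 (SE 0.17, adjusted p = 0.0169 by limma), a call that 13 of 18 alternative fits kept. Map2k1 was called in tumor-free mice at 0.65, a call that 14 of 18 alternative fits kept. Mapk3 and Pik3cd were called in tumor-bearing mice at 0.69 and 0.68, and each call held in 9 of 18. With slide as a block these 2 differences were 0.47 and 0.40 and not called.

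Of 16 feedback inhibitors and STAT5-induced genes, 1 was called with tumor in CDPs, and limma called 0 in MDPs (2 at an unadjusted p under 0.05). The shares of all tested probes called were 1.79% in CDPs and 0.062% in MDPs. Socs3, which blocks signaling of the G-CSF receptor and of receptors using gp130, rose in tumor-bearing CDPs by 3.38 (SE 0.55, limma adjusted p = 0.00841). That call held in 17 of 18 alternative fits and was lost in the test named in the study's methods. Sh2b3, an adaptor that restrains Jak2 and Kit signaling, was higher in CDPs than in MDPs of tumor-free mice by 0.86 (SE 0.14, adjusted p = 0.00161 by limma). Ptpn6, the phosphatase SHP-1, was higher by 0.62 (SE 0.16, adjusted p = 0.0274 by limma), a call that 10 of 18 alternative fits kept.

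Of 12 transcription factors that act on receptor genes, 6 were called lower in tumor-free CDPs than in tumor-free MDPs, with 0 higher. In tumor-bearing mice 4 were called lower, with 0 higher. Of all tested probes, 6.07% and 7.24% were called in these comparisons, in either direction. The list medians were -0.81 and -0.83, beside 0.02 and 0.16 over all genes. Gfi1, a transcriptional repressor needed for granulocyte differentiation, differed by -4.42 (SE 0.39, limma adjusted p = 1.52e-05) in tumor-free mice and by -2.91 (SE 0.39, adjusted p = 0.000449) in tumor-bearing mice. Myb, Tal1 and Meis1, factors of immature progenitors, were called lower in both. Their differences in tumor-free and tumor-bearing mice were -0.92 and -1.30 for Myb, -1.28 and -0.95 for Tal1, and -0.96 and -1.29 for Meis1. Cebpe and Gata2 were called in tumor-free mice, at -1.73 and -2.82. The call of Gata2 held in 7 of 17 alternative fits and its difference was -1.62 after normexp and -2.08 without tumor-free CDP replicate 2, while 3 of 4 tumor-free CDP arrays had it above background. The tumor-free call of Meis1 held in 8 of 18. With tumor, Gfi1 was the 1 called factor in CDPs, higher by 1.73 (SE 0.39, limma adjusted p = 0.0383), a call that 8 of 18 alternative fits kept. The share of all tested probes called for tumor in CDPs was 1.79%. In MDPs limma called 0 of the 12, with 1 at an unadjusted p under 0.05.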

How the data were processed

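Tumor-free and tumor-bearing MDPs and CDPs were measured on 16 1-color (Cy5) arrays. Per the file headers, the authors deposited Agilent Feature Extraction 11.5.1.1 tables with the processed spot intensity, which is background-subtracted within an array and not scaled between arrays. They also deposited the mean and background intensity and flags of 0 or 1 (well above background, saturated, outlier). The authors' series table holds log2 signals of 26793 probes and served as an alternative, and each of its columns matched its own array best (r of at least 0.9943). The submitters' processing notes name limma.

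Control and outlier spots (182 to 289 per array) were left out, log2 processed intensities were centered on the array's 75th percentile, and spots of a probe were averaged. A probe was tested where 3 or more of the 4 arrays in any group held it well above background, with limma 3.58.1 (R 4.3.3) on 4 group means. Calls needed an FDR (Benjamini-Hochberg) under 0.05 together with a change above 1.5-fold. A gene's brightest probe has its highest average signal, and list genes are given by that probe. Member probes also had an exact two-sided permutation test over 70 relabelings. The pooling of 2 mice per sample is the study's statement. P-values measure the spread between these samples, and the number of arrays limits the precision. Named are the 8 members, the called genes of the pathway lists and the 3 symbols most correlated with each member, except for items that are not reported here. Members, lists and tests were chosen with earlier results of these data known. The fit was tested on simulated data with known changes. Those data had independent noise and no slide differences, so the test does not cover the slides. Probe positions are those of the array design (mm9) and were not mapped anew, and promoters are from RefSeq. Alternatives were normexp (offset 50), quantile normalization, scaling to detected probes, the authors' series table, other filters, a slide block, a block of replicate numbers, a fit of the compared groups alone, the t-test named in the study's methods, no fold minimum, and leaving out each array.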

Additional observations from a re-analysis of the deposited data

Results flagged for a closer look

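Flt3 in the library labelled tumor-bearing MDP replicate 4 lay apart from its group on the brightest probe, at 0.40 against 1.40 to 1.58 on the other 3 arrays. Its gap to the nearest array was 0.847 of the group's range, above Dixon's 95% critical value for 4 samples. It was 1 of 32 combinations of gene and group that lay so far out, and chance gives about 1 in 20. This array had the lowest share of probes well above background, 58.8%, sat on slide 1, and was the lowest of its group for 11 of the 14 member probes.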

How the results depend on the processing

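The count of member probes called for tumor in CDPs was 2. It was 1 with the replicate block, after normexp, after quantile normalization, in the deposited value table and with no filter, and 0 where only the groups compared were fitted and in the methods' t-test. It was 3 with slide as a block, which added a Csf2rb2 probe, and 3 without tumor-bearing CDP replicate 5 and 1 without each of the other 7 arrays. Kit was the called probe in each of the fits with 1, and Csf2rb the probe lost. The count of 2 for tumor-free CDPs against MDPs was 3 with slide as a block and 1 in the fit of only those groups and in the methods' t-test, and the 3 for the tumor-bearing step ran from 2 to 4. The 0 called in MDPs and for the difference stayed at 0 in every alternative run. Over all tested probes, calls for tumor in CDPs ran from 3 in the methods' t-test and 55 in the fit of only the groups compared to 1251 with slide as a block, against 491. Those for tumor in MDPs ran from 1 to 45 against 17, for the difference from 0 to 7 against 4, for tumor-free CDPs against MDPs up to 2923 with slide as a block against 1665, and for the tumor-bearing step from 587 to 3276 against 1986. Values near 0 changed sign. The Csf3r probe in CDPs with tumor was -0.03 with slide as a block, -0.14 after quantile normalization and -0.13 in the value table. Csf2ra in MDPs was 0.02 after normexp. Without 1 array, that Csf3r change ran from -0.06 to 0.23, Csf1r in MDPs from -0.25 to 0.02, Flt3 in MDPs from -0.26 to 0.17 and Csf3r between tumor-free CDPs and MDPs from -0.09 to 0.25. Deviations of same-numbered samples from their group means had a median r of -0.00559 (from -0.696 to 0.482 over 24 pairs). Slide means were not removed for this, and same-numbered samples mostly lay on different slides. These values therefore do not settle whether the numbers pair samples, and the main fit does not pair them. Samples on the same slide deviated together more (median r = 0.263, from -0.218 to 0.791 over 22 pairs). Pairs that shared neither had a median r of -0.0629. The main fit holds no term for slide, and the slide block is given as an alternative. The replicate block left Kit called in CDPs (adjusted p = 0.00684), lost Csf2rb (0.083) and put Flt3 at 0.069. Every alternative fit listed was run, and why calls changed was not tested.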

Other observations

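Chosen after its values were seen: for the 2 brighter Flt3 probes, the sample numbered 4 was the lowest array in all 4 groups, on slides 1, 2 and 4. Among 27301 tested probes without a missing value, 0.392% had this pattern for number 4, beside 0.121%, 0.172% and 0.209% for numbers 2, 3 and 5. Between samples of the same number, the brightest Flt3 probe was lower in tumor-bearing CDPs by -1.12, -0.59, -1.05 and -0.40 for numbers 2 to 5. In MDPs the same differences were -0.11, 0.08, -0.40 and 0.06. The labels do not say whether a number marks a shared experiment, so these are values with no test.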
